A study of Penicillium oxalicum with 6 samples.

Results

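In *Penicillium oxalicum*, a filamentous fungus grown for its plant-biomass-degrading enzymes, 69 genes that lie in runs of consecutively numbered genes and were raised together in the mutant Δ*PoxMKK1* are described here. For each of the 9834 genes, r was taken as the log2 ratio of the mean FPKM in Δ*PoxMKK1* to the mean FPKM in Δ*PoxKu70* after adding 0.5 to both means, FPKM being fragment counts scaled to transcript length and library size. A run was a stretch of at least 4 consecutive gene numbers in which every gene had r of at least 1 and its lowest FPKM in Δ*PoxMKK1* above its highest FPKM in Δ*PoxKu70*. Of all genes, 1024 met both conditions (10.4%), and 123 of these formed 25 runs. The 69 members are the run genes with a mean of at least 1 FPKM in Δ*PoxKu70* and without an annotation as a carbohydrate-active enzyme, a transcription factor, a cytochrome P450 or a sugar or major facilitator transporter in the gene table of the study. They lie in 23 of the 25 runs. The members were chosen by the FPKM of both strains, so that r, the separation of the groups and every fold change between the strains are given as a description without a test.

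The mutant Δ*PoxMKK1*, labelled MuPOX07948, lacks *POX07948*, which encodes the mitogen-activated protein kinase kinase PoxMKK1, and was built by replacing that gene with a G418-resistance gene in Δ*PoxKu70*. The strain Δ*PoxKu70*, labelled Ku70, lacks *POX01583*, which encodes the homologue of the end-joining protein Ku70, and served as the control, so that both strains carry this deletion. Mycelium of each strain was moved out of glucose into liquid medium with 2% Avicel, a microcrystalline cellulose, and collected after 24 h. Each strain gave 3 libraries, labelled F, S and T, and values below are given in that order. The study calls the libraries of a strain biological repeats, and the labels do not say whether they came from separate cultures.

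Genes for a fungal secondary metabolite often lie side by side. Such a cluster holds a backbone gene, typically a polyketide synthase (PKS), which joins acyl units, or a nonribosomal peptide synthetase (NRPS), which joins amino acids, and next to it genes for tailoring enzymes such as oxygenases, reductases, methyltransferases and prenyltransferases that modify the first product, and often a transporter or a regulator of the cluster. In *Aspergillus* and *Penicillium* some of these clusters are switched on together with the formation of conidia, the asexual spores. No coordinates or sequences were used here, so that "consecutive" refers to the gene numbers alone, and the annotations are InterPro entries of the study's table, which do not give the compound made.

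The libraries held 13687087 to 14042791 expected counts. *POX07948* had 2, 1 and 0 counts in Δ*PoxMKK1*, against 656, 592 and 753 counts in Δ*PoxKu70*. The 3 regulators of conidiation taken as markers of conidiating cells were all called higher in Δ*PoxMKK1* by edgeR. *PoxBrlA* (*POX06534*), the central activator of conidiation, had 460, 394 and 379 FPKM in Δ*PoxMKK1*, against 29.4, 5.38 and 42.2 FPKM in Δ*PoxKu70*. *PoxAbaA* (*POX07025*), which acts after it, had 105, 92.2 and 87.8 FPKM in Δ*PoxMKK1*, against 4.40, 3.88 and 3.32 FPKM in Δ*PoxKu70*. *PoxFlbD* (*POX07099*), the third, had 415, 510 and 448 FPKM in Δ*PoxMKK1*, against 165, 117 and 211 FPKM in Δ*PoxKu70*. In each Δ*PoxKu70* library it was the highest of the 3 markers. The summed level of the 3 markers was 915 to 996 FPKM in Δ*PoxMKK1* and 127 to 256 FPKM in Δ*PoxKu70*, and none was at 0. The part of conidiating cells in the levels below was not tested, and in such bulk RNA more cells of one kind cannot be told apart from more RNA per cell.

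Replicate S of Δ*PoxKu70* stood apart at many members. It was the lowest of the 3 Δ*PoxKu70* libraries at 56 of the 69 members (81.2%). Among genes outside the runs with a mean of at least 1 FPKM in Δ*PoxKu70*, it was the lowest at 53.7% of the 725 that met both conditions of the rule and at 31.2% of all 8576. Run membership and the calls of the edgeR fit are given with and without this library.

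The 69 members had a median r of 2.04 (1.00 to 7.32), beside a median of 0.07 over all genes. Of them, 36 had r of at least 2 and 9 had r of at least 3, while 15 were below 1.5. In Δ*PoxMKK1*, 37 had a mean above 100 FPKM, among them 14 with over 10 times that, and 6 a mean below 10 FPKM. In 51 members the lowest Δ*PoxMKK1* library was at least 2 times the highest Δ*PoxKu70* library, and over all members this ratio ran from 1.04 to 102. The rule required a ratio above 1 at every member. The share of other genes that reach such a ratio was not counted, and nothing is read from the count. The study's table, which lists genes that the study chose in these same libraries, holds 52 of the members, and 43 of these have at least 1 InterPro entry. The other 17 members are not listed there, so that they passed the annotation conditions without an annotation in the source used. Of the runs, 15 had 4 genes, and the longest had 9.

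**Figure D1:**
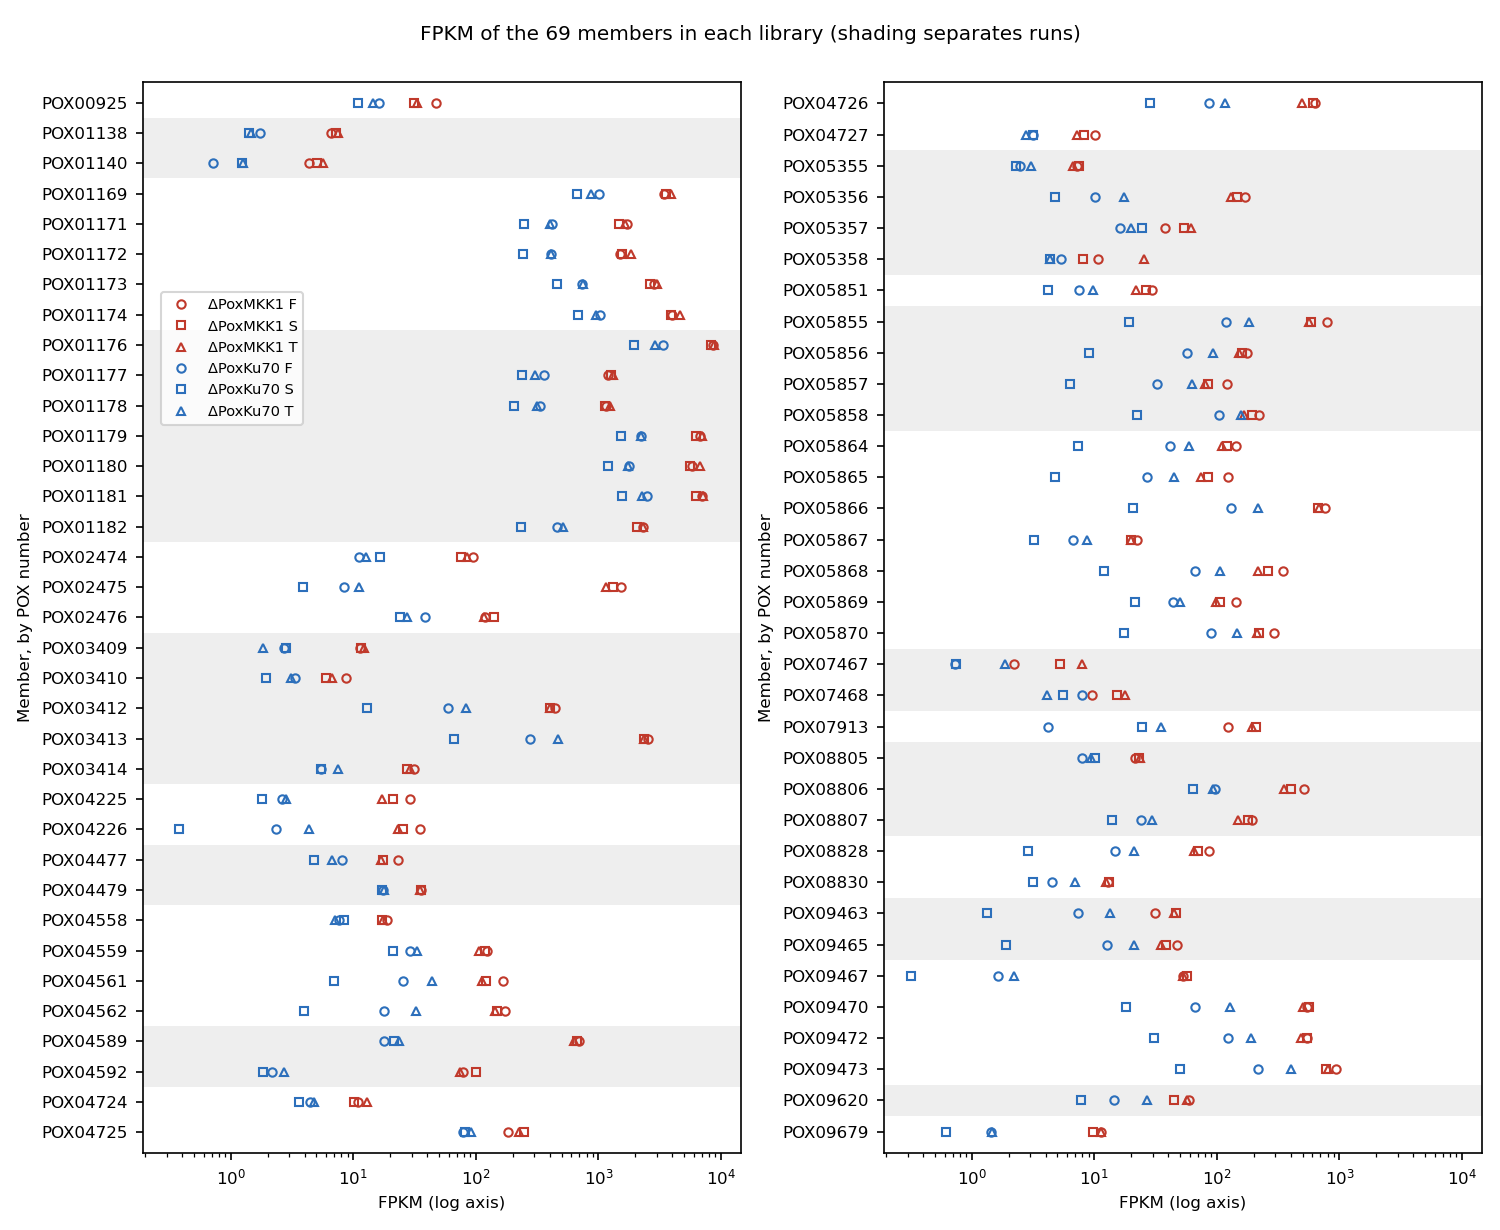
FPKM of the 69 members (log axis) in each library, in gene number order, with Δ*PoxMKK1* and Δ*PoxKu70* in separate colours, 1 marker shape per library and shading that sets the runs apart. Every Δ*PoxMKK1* point lies above every Δ*PoxKu70* point of the same gene, as the rule required, and the members from *POX05855* on and from *POX09463* on show a wide spread among the Δ*PoxKu70* libraries with replicate S lowest.

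The most abundant members lay between *POX01169* and *POX01183*, where 2 runs of 6 and 8 genes were parted by a single gene and held 12 members. Together these 12 members had 46329, 43931 and 49510 FPKM in Δ*PoxMKK1*, against 14618, 9194 and 13651 FPKM in Δ*PoxKu70*. This was 4.26, 4.08 and 4.60% of all FPKM in the libraries of Δ*PoxMKK1*, against 1.39, 0.896 and 1.30% in those of Δ*PoxKu70*. The members had r between 1.64 and 2.47, while *POX01175*, the gene between the runs, and *POX01183*, the run gene at the end of the stretch, had r of 0.95 and 1.26.

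The backbone gene of this stretch was *POX01177*, with the ketoacyl synthase, starter-unit acyl transferase and product-template entries of a non-reducing PKS. It had 1194, 1268 and 1315 FPKM in Δ*PoxMKK1*, against 359, 236 and 302 FPKM in Δ*PoxKu70*. All other members of the stretch except *POX01178* had a higher mean FPKM in Δ*PoxMKK1* than this gene. *POX01176*, with the entry of scytalone dehydratase, an enzyme known from melanin synthesis in *Magnaporthe*, was the member with the highest level of all, at 8640.0, 8327 and 8732 FPKM in Δ*PoxMKK1*, against 3366, 1964 and 2889 FPKM in Δ*PoxKu70*. Its r of 1.64 was at the same time the smallest among the members of the stretch.

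*POX01174*, an NmrA-like protein of the kind that binds NAD(P), had 3987, 3899 and 4639 FPKM in Δ*PoxMKK1*, against 1027, 679.6 and 959 FPKM in Δ*PoxKu70*. *POX01169*, with the entry of FAD-binding monooxygenases, had 3441, 3542 and 3897 FPKM in Δ*PoxMKK1*, against 1012, 672 and 866 FPKM in Δ*PoxKu70*. The largest r of the stretch, 2.47, belonged to *POX01182*, a methyltransferase that takes the methyl group from S-adenosylmethionine, with 2313, 2079.7 and 2311 FPKM in Δ*PoxMKK1*, against 457, 235 and 518 FPKM in Δ*PoxKu70*. In all of these genes replicate S was the lowest library of Δ*PoxKu70*, and its distance to the others was smaller than the distance between the strains.

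Of the other members of this stretch, the ketoreductase-like short-chain dehydrogenase *POX01179* had means of 6665 ± 423 FPKM in Δ*PoxMKK1* and 1989.5 ± 407 FPKM in Δ*PoxKu70* (SD, n = 3 each). The NTF2-like proteins *POX01180* and *POX01181*, a fold that many small tailoring enzymes share, had means of 6028 ± 624 FPKM in Δ*PoxMKK1* and 1567 ± 329 FPKM in Δ*PoxKu70* (SD, n = 3 each) for the first, and of 6777 ± 482 FPKM in Δ*PoxMKK1* and 2111 ± 499 FPKM in Δ*PoxKu70* (SD, n = 3 each) for the second. *POX01173* (questin oxidase-like) had means of 2841 ± 175 FPKM in Δ*PoxMKK1* and 648 ± 166 FPKM in Δ*PoxKu70* (SD, n = 3 each), and its r was 2.13. The EthD-domain protein *POX01172*, the short-chain dehydrogenase *POX01171* and the metallo-beta-lactamase-fold protein *POX01178*, a fold that in PKS clusters can release the product, had r of 2.21, 2.18 and 2.04. These 3 genes averaged between 1175 and 1630.4 FPKM in Δ*PoxMKK1*. The gene that parted the runs, *POX01175*, had 1507, 1308 and 1534 FPKM in Δ*PoxMKK1*, against 873, 686 and 692 FPKM in Δ*PoxKu70*. Its groups were separate too, and its r of 0.95 missed the limit of 1, and all 15 genes from *POX01169* to *POX01183* formed 1 run if either replicate S was left out of Δ*PoxMKK1* or replicate F was left out of Δ*PoxKu70*.

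**Figure D2:**
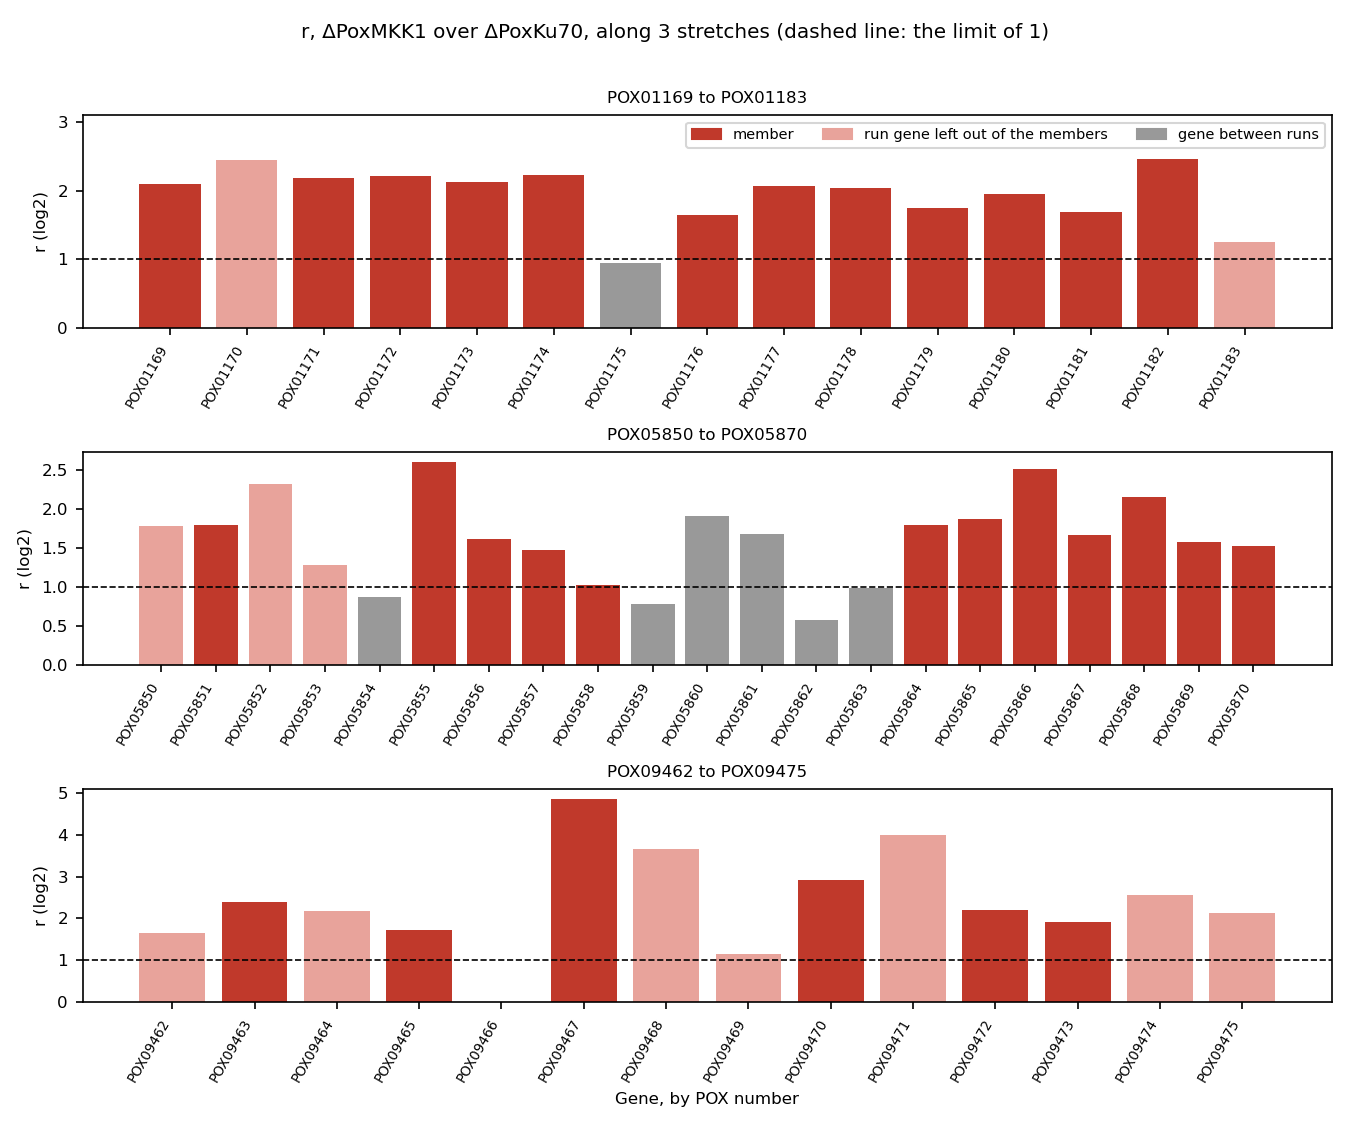
The log2 ratio r of Δ*PoxMKK1* to Δ*PoxKu70* for each gene in number order along the 3 longest stretches, with members, run genes left out and genes between the runs coloured apart and the limit of 1 drawn as a line. The bars of the members from *POX01169* to *POX01183* run from 1.64 to 2.47, and *POX01175* stands just under the line at 0.95.

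Between *POX05850* and *POX05870*, 21 consecutive genes held 3 runs with 12 members. The members together had 3165, 2537 and 2387 FPKM in Δ*PoxMKK1*, against 724, 147.5 and 1138 FPKM in Δ*PoxKu70*. Here the libraries of Δ*PoxKu70* differed among themselves more than in the stretch before. In all 21 genes replicate S was the lowest, F the middle and T the highest library of Δ*PoxKu70*, and in all 21 replicate F was the highest of Δ*PoxMKK1*. The ratio of replicate T to replicate S of Δ*PoxKu70*, with 0.5 FPKM added to both, had a median of 8.34 over the 12 members (2.19 to 10.3).

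The backbone gene was *POX05851*, an NRPS with condensation, adenylation and carrier entries and a terminal reductase-like domain, with 29.7, 26.2 and 22.1 FPKM in Δ*PoxMKK1*, against 7.46, 4.19 and 9.77 FPKM in Δ*PoxKu70*. All other members of the stretch except *POX05867* had a higher mean FPKM in Δ*PoxMKK1*. A further 4 members carried the phytanoyl-CoA dioxygenase entry, a family of iron-dependent oxygenases that also serves in fungal secondary metabolism. Of these, *POX05866* had 758, 667 and 676 FPKM in Δ*PoxMKK1*, against 130.2, 20.6 and 218 FPKM in Δ*PoxKu70*. *POX05855* had 789, 591 and 562 FPKM in Δ*PoxMKK1*, against 118, 19.0 and 183 FPKM in Δ*PoxKu70*. In both genes replicate T of Δ*PoxKu70* came closest to the Δ*PoxMKK1* libraries.

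The smallest r among the members of the stretch, 1.02, was that of the dioxygenase *POX05858*, with 219.6, 194 and 165 FPKM in Δ*PoxMKK1*, against 104, 22.2 and 159 FPKM in Δ*PoxKu70*. Its lowest Δ*PoxMKK1* library was barely above replicate T of Δ*PoxKu70*. The fourth dioxygenase, *POX05868*, had means of 275 ± 66.4 FPKM in Δ*PoxMKK1* and 61.6 ± 47.2 FPKM in Δ*PoxKu70* (SD, n = 3 each). *POX05870*, a methyltransferase, had 294, 220.1 and 213 FPKM in Δ*PoxMKK1*, against 90.2, 17.3 and 145 FPKM in Δ*PoxKu70*. The remaining members were the methyltransferase *POX05856*, the NmrA-like proteins *POX05857* and *POX05864*, the acyltransferase-like *POX05865*, *POX05867*, which is without an entry, and the aminotransferase *POX05869*, with r from 1.47 (*POX05857*) to 1.86 (*POX05865*).

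The 6 genes between the runs of this stretch showed the same order of libraries. Of these, *POX05854*, *POX05859*, *POX05862* and *POX05863* overlapped between the strains and had r from 0.57 to 0.98. The other two, the NmrA-like *POX05860* and the FAD-binding monooxygenase *POX05861*, met both conditions of the rule (r of 1.91 and 1.67) and lay in no run only because their stretch was too short. The extent of the runs turned on single libraries. Without replicate T of Δ*PoxKu70*, the 25 genes from *POX05848* to *POX05872* formed 1 unbroken run. Without replicate S of Δ*PoxKu70*, only the 7 genes from *POX05864* to *POX05870* remained a run here, and *POX05851* and the 4 members from *POX05855* to *POX05858* were in none. Without replicate F of Δ*PoxMKK1* the same 4 members were in no run either.

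The third long stretch, from *POX09462* to *POX09475*, held 14 genes, of which 13 were run genes and 6 were members. The 6 members together had 2158, 2031 and 1929 FPKM in Δ*PoxMKK1*, against 429, 102 and 759 FPKM in Δ*PoxKu70*. As in the stretch at *POX05850*, all 6 members had replicate S lowest and replicate T highest among the Δ*PoxKu70* libraries, and the ratio of T to S had a median of 7.28 (3.30 to 8.90).

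*POX09467*, an NRPS with condensation, adenylation and carrier entries, had the largest r of this stretch at 4.85, with 52.8, 56.7 and 53.0 FPKM in Δ*PoxMKK1*, against 1.65, 0.320 and 2.21 FPKM in Δ*PoxKu70*. The gene was close to silent in replicate S of Δ*PoxKu70* and even across the 3 libraries of Δ*PoxMKK1*. *POX09472*, an aromatic prenyltransferase, an enzyme kind that adds an isoprenoid group to an aromatic ring, often that of tryptophan, had 543, 546 and 489.7 FPKM in Δ*PoxMKK1*, against 123, 30.4 and 190.2 FPKM in Δ*PoxKu70*. *POX09463*, of the isoprenoid synthase fold, had 31.5, 46.2 and 45.0 FPKM in Δ*PoxMKK1*, against 7.32, 1.34 and 13.5 FPKM in Δ*PoxKu70*. Thus a peptide synthetase, a prenyltransferase and a member of the isoprenoid synthase fold were higher in Δ*PoxMKK1* within the same stretch.

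The most abundant member here was the methyltransferase *POX09473*, with 939, 781 and 803 FPKM in Δ*PoxMKK1*, against 217, 49.98 and 403 FPKM in Δ*PoxKu70*. The second methyltransferase, *POX09465*, had 46.8, 38.3 and 34.7 FPKM in Δ*PoxMKK1*, against 12.7, 1.92 and 21.0 FPKM in Δ*PoxKu70*, and its r of 1.71 was the smallest among the members of the stretch. The monooxygenase *POX09470* had means of 537 ± 30.6 FPKM in Δ*PoxMKK1* and 71.3 ± 55.6 FPKM in Δ*PoxKu70* (SD, n = 3 each). The gene between the 2 runs, *POX09466*, was at or near 0 FPKM in all 6 libraries, so that its r of 0 holds no information on its direction. Without replicate S of Δ*PoxKu70*, *POX09467* was in no run, while the genes from *POX09470* to *POX09475* and from *POX09462* to *POX09465* still formed runs of 6 and 4.

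**Figure D3:**
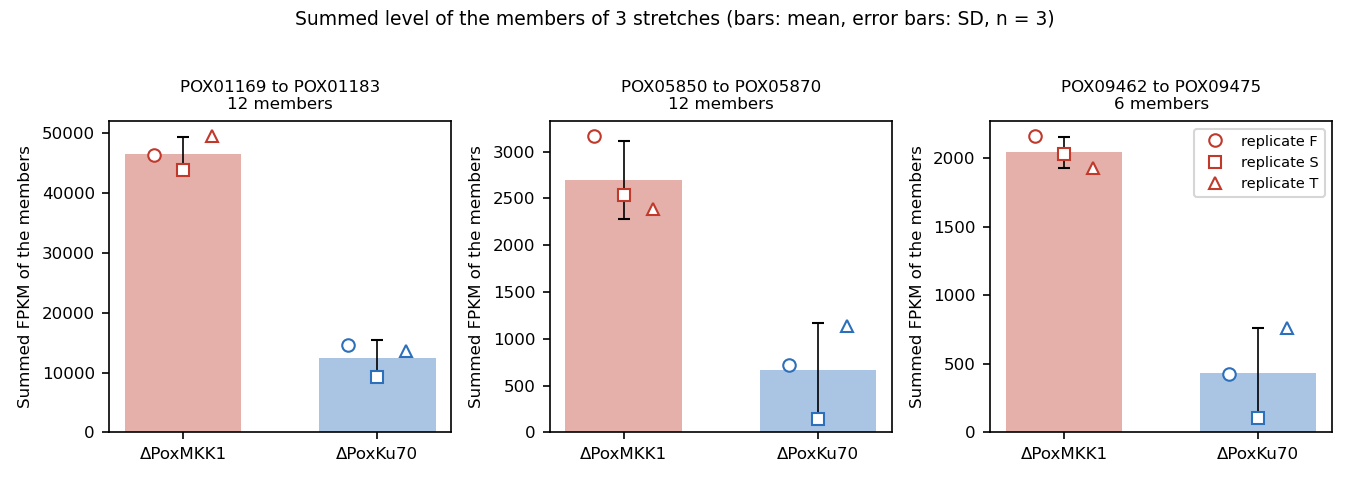
Summed FPKM of the members (linear axes from 0, one scale per stretch) for the 3 long stretches, Δ*PoxMKK1* to the left of Δ*PoxKu70*, with bars for the mean, error bars for the SD (n = 3) and 1 marker per library. In each stretch all Δ*PoxMKK1* sums lie above all Δ*PoxKu70* sums, as the rule fixed for any sum of members. Replicate S of Δ*PoxKu70* is the lowest in every stretch, at 9194, 147.5 and 102 FPKM from left to right.

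Several shorter runs also held enzyme genes. In the run from *POX03409* to *POX03414*, *POX03413*, a ketoreductase-like short-chain dehydrogenase, had 2558, 2341 and 2342 FPKM in Δ*PoxMKK1*, against 276, 66.8 and 466 FPKM in Δ*PoxKu70*, and its neighbour with the scytalone dehydratase entry, *POX03412*, had means of 414 ± 21.7 FPKM in Δ*PoxMKK1* and 51.8 ± 35.9 FPKM in Δ*PoxKu70* (SD, n = 3 each). This pair had the same kinds of enzyme as *POX01179* and *POX01176*. Their levels in replicate T of Δ*PoxKu70* were 6.93 times (*POX03413*) and 6.28 times (*POX03412*) those in replicate S, again with 0.5 FPKM added, while the other members of the run lay between 0.709 and 1.47. The lowest r of the run was that of *POX03410*, which has no InterPro entry here, with 8.74, 6.01 and 6.70 FPKM in Δ*PoxMKK1*, against 3.37, 1.93 and 3.08 FPKM in Δ*PoxKu70*. *POX03409* and *POX03414*, a member with a domain of unknown function, had r of 2.05 and 2.16.

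In the run from *POX04224* to *POX04227*, the FAD-binding monooxygenase *POX04226* had 34.8, 25.4 and 23.0 FPKM in Δ*PoxMKK1*, against 2.36, 0.380 and 4.37 FPKM in Δ*PoxKu70*, and the aminotransferase *POX04225* had 29.0, 21.1 and 17.2 FPKM in Δ*PoxMKK1*, against 2.64, 1.79 and 2.82 FPKM in Δ*PoxKu70*. Both were low in Δ*PoxKu70* and not abundant in Δ*PoxMKK1*. In the run from *POX08827* to *POX08830*, *POX08828*, with the entry of AMP-forming synthetases and ligases, which activate acids, had 85.8, 70.2 and 65.2 FPKM in Δ*PoxMKK1*, against 14.8, 2.87 and 21.2 FPKM in Δ*PoxKu70*, and *POX08830* had 12.9, 13.2 and 12.6 FPKM in Δ*PoxMKK1*, against 4.51, 3.15 and 7.02 FPKM in Δ*PoxKu70*. *POX08828* thus shared the low replicate S of Δ*PoxKu70* with the NRPS stretches.

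The run from *POX04558* to *POX04562* held the O-methyltransferase *POX04561*, with means of 133 ± 29.8 FPKM in Δ*PoxMKK1* and 25.5 ± 18.4 FPKM in Δ*PoxKu70* (SD, n = 3 each), and *POX04562*, with 174, 148 and 142 FPKM in Δ*PoxMKK1*, against 17.9, 3.95 and 32.6 FPKM in Δ*PoxKu70*. Its member with the smallest r was *POX04558*, with 18.9, 17.2 and 17.3 FPKM in Δ*PoxMKK1*, against 7.68, 8.37 and 7.10 FPKM in Δ*PoxKu70*. *POX04559*, with the entries of Fringe-like and PAN/Apple domains, had an r of 2.04. Only *POX04561* and *POX04562* among these 4 members had a replicate T over 3 times replicate S in Δ*PoxKu70*.

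The members with r above that of *POX09467* (4.85), which lies in the longest run, all lay in runs of 4 genes. *POX02475*, without an InterPro entry, had 1541, 1309 and 1144 FPKM in Δ*PoxMKK1*, against 8.47, 3.86 and 11.2 FPKM in Δ*PoxKu70*, an r of 7.32. Its neighbours *POX02474* and *POX02476* rose less, with r of 2.61 and 2.04, and *POX02476* had 119, 140.1 and 116 FPKM in Δ*PoxMKK1*, against 38.6, 23.9 and 27.2 FPKM in Δ*PoxKu70*. In the run from *POX04589* to *POX04592*, *POX04589* had 694, 665 and 629 FPKM in Δ*PoxMKK1*, against 17.7, 21.3 and 23.4 FPKM in Δ*PoxKu70*, and the aldo/keto reductase *POX04592*, a kind of enzyme that reduces carbonyl groups with NADPH, had 78.3, 101 and 73.8 FPKM in Δ*PoxMKK1*, against 2.18, 1.82 and 2.70 FPKM in Δ*PoxKu70*. In these 2 genes the libraries of each strain lay close together, and replicate S of Δ*PoxKu70* did not stand far apart from the others.

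Other runs held members without a known enzyme entry. *POX04726* had 632, 607 and 492 FPKM in Δ*PoxMKK1*, against 85.6, 28.5 and 117 FPKM in Δ*PoxKu70*, in a run whose other 3 members, the basic helix-loop-helix protein *POX04725*, *POX04724* and *POX04727*, had r of 1.38, 1.31 and 1.36. *POX04725*, whose helix-loop-helix domain is one that binds DNA, is listed without a transcription factor entry in the study's table, and had means of 217 ± 32.0 FPKM in Δ*PoxMKK1* and 83.4 ± 6.20 FPKM in Δ*PoxKu70* (SD, n = 3 each). *POX04724*, the smallest r of that run, had 11.0, 10.2 and 12.9 FPKM in Δ*PoxMKK1*, against 4.44, 3.59 and 4.78 FPKM in Δ*PoxKu70*. The run from *POX05355* to *POX05358* had the same shape. *POX05356* had 169, 146 and 131 FPKM in Δ*PoxMKK1*, against 10.1, 4.74 and 17.4 FPKM in Δ*PoxKu70*, and *POX05355*, with the smallest r, had 7.20, 7.46 and 6.69 FPKM in Δ*PoxMKK1*, against 2.47, 2.30 and 3.03 FPKM in Δ*PoxKu70*. *POX05357*, with an entry shared with a Het-C protein of vegetative incompatibility in *Neurospora*, and *POX05358* had r of 1.32 and 1.57. In both runs a single gene rose far more than its neighbours.

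In the run from *POX08805* to *POX08809*, *POX08806* had 517, 402 and 350.4 FPKM in Δ*PoxMKK1*, against 96.1, 64.3 and 92.1 FPKM in Δ*PoxKu70*, and *POX08807*, with a domain of unknown function, had 194, 178 and 149 FPKM in Δ*PoxMKK1*, against 24.0, 13.8 and 29.4 FPKM in Δ*PoxKu70*. Their neighbour *POX08805* had 21.4, 23.1 and 23.7 FPKM in Δ*PoxMKK1*, against 7.90, 10.1 and 9.31 FPKM in Δ*PoxKu70*, with an r of 1.28. *POX07913*, with a cyanovirin-N-like sugar-binding domain, was the only member of its run and had 122, 210.1 and 193 FPKM in Δ*PoxMKK1*, against 4.20, 24.5 and 34.95 FPKM in Δ*PoxKu70*. *POX00925*, with the entry of a gluconolactonase-like hydrolase, was also alone and had 47.5, 31.1 and 33.4 FPKM in Δ*PoxMKK1*, against 16.4, 11.0 and 14.6 FPKM in Δ*PoxKu70*.

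Of the remaining 8 members, all but *POX09620* are not listed in the study's table, and their levels were low to moderate. *POX04477* had 23.1, 17.5 and 16.7 FPKM in Δ*PoxMKK1*, against 8.15, 4.75 and 6.75 FPKM in Δ*PoxKu70*, and *POX04479* had 36.0, 35.7 and 34.8 FPKM in Δ*PoxMKK1*, against 17.6, 17.1 and 17.7 FPKM in Δ*PoxKu70*. *POX01138* had 6.53, 7.29 and 7.51 FPKM in Δ*PoxMKK1*, against 1.73, 1.41 and 1.45 FPKM in Δ*PoxKu70*, and *POX01140* had 4.32, 5.10 and 5.62 FPKM in Δ*PoxMKK1*, against 0.710, 1.24 and 1.26 FPKM in Δ*PoxKu70*. *POX04479* had the smallest r of all members. *POX07467* had 2.22, 5.20 and 7.86 FPKM in Δ*PoxMKK1*, against 0.730, 0.740 and 1.88 FPKM in Δ*PoxKu70*, and *POX07468* had 9.57, 15.2 and 17.8 FPKM in Δ*PoxMKK1*, against 7.97, 5.53 and 4.09 FPKM in Δ*PoxKu70*. *POX09620* had 59.3, 44.3 and 56.6 FPKM in Δ*PoxMKK1*, against 14.5, 7.78 and 26.8 FPKM in Δ*PoxKu70*, with fractional expected counts in all 6 libraries, so that part of its reads was shared with another gene. *POX09679* had 11.3, 9.76 and 11.3 FPKM in Δ*PoxMKK1*, against 1.43, 0.620 and 1.47 FPKM in Δ*PoxKu70*, with fractional counts in 1 library.

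Beside the runs stood 47 genes, each directly before or after a run. Of these, 16 had separate groups but r below 1, 2 had r of at least 1 but overlapping groups, and 29 failed both conditions. Of the 47, 10 had r between 0.8 and 1, and 14 had r below 0. The members just inside the limit of r were *POX04479* (1.00), *POX05858* (1.02) and *POX04558* (1.16). Among genes beside a run with separate groups, *POX04476* (0.97), *POX05849* (0.95) and *POX01175* (0.95) lay just outside it. *POX05863* (0.98), whose groups overlapped, was nearer to the limit. For the limit of 1 FPKM in Δ*PoxKu70*, *POX01140* (1.07), *POX07467* (1.12) and *POX09679* (1.17) lay just inside, and *POX01142*, *POX04591* (0.803 each) and *POX00922* (0.707) just outside. When a library was left out and the rule applied again, 60 of the 69 members were still members without replicate S of Δ*PoxKu70*, 66 without its replicate T and all 69 without its replicate F. The same count was 62 without replicate F, 66 without replicate S and 65 without replicate T of Δ*PoxMKK1*. Of the members lost, 8 lay in no run any more without replicate S of Δ*PoxKu70*, while all 69 still lay in a run without its replicate T.

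The 54 run genes left out comprised 30 with a mean below 1 FPKM in Δ*PoxKu70*, 8 carbohydrate-active enzymes, 9 cytochromes P450 and 5 transporters. A further 5 had a transcription factor entry in the study's table, and 3 of the 54 genes were counted for 2 reasons. Of the genes with a transcription factor entry, *POX04227* and *POX09469* also carry all InterPro entries of the O-methyltransferase *POX04561*. Over the 54 genes, r had a median of 2.09 (1.07 to 8.34). The runs from *POX08753* to *POX08758* and from *POX09119* to *POX09124* held left-out genes only. Regulators, P450 oxygenases and transporters are parts of many secondary metabolite clusters. The members therefore give the runs without the genes annotated as such in the study's table.

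The Δ*PoxKu70* libraries lay far apart at many of the members. The rule set no condition on this spread, but it used the same FPKM, and a low Δ*PoxKu70* library raises r. The spread is therefore not independent of the choice of the members. The order S, F, T held at 41 of the 69 members (59.4%), against 41.7% of the 725 genes outside the runs that met both conditions of the rule and 21.2% of all 8576 genes outside the runs, each counted with a mean of at least 1 FPKM in Δ*PoxKu70*. Replicate T was at least 3 times replicate S at 24 members (34.8%), against 13.7% of those 725 genes and 2.04% of all genes outside the runs. Over the members, the median coefficient of variation was 11.1% among the Δ*PoxMKK1* libraries and 33.5% among those of Δ*PoxKu70*, and it was larger in Δ*PoxKu70* at 63 of them (91.3%). Among the 725 genes the medians were 12.9% for Δ*PoxMKK1* and 23.3% for Δ*PoxKu70*, with the larger value in Δ*PoxKu70* at 72.8%. Among the 8576 genes they were 9.24% for Δ*PoxMKK1* and 12.8% for Δ*PoxKu70*, with the larger value in Δ*PoxKu70* at 64.6%. Of the 3 conidiation markers, *PoxBrlA* and *PoxFlbD* showed the same order, with replicate T at 7.27 and 1.79 times replicate S, and *PoxAbaA* did not, with a ratio of 0.872. Whether these differences between the libraries of a strain have a common source was not tested, and neighbouring genes are not independent of each other. The length implied by count and FPKM had a median of 992 bases over the 67 members with enough counts. It was 1173 bases over 684 of the 725 genes and 1304 bases over 7984 of the 8576 genes, again those with enough counts.

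**Figure D4:**
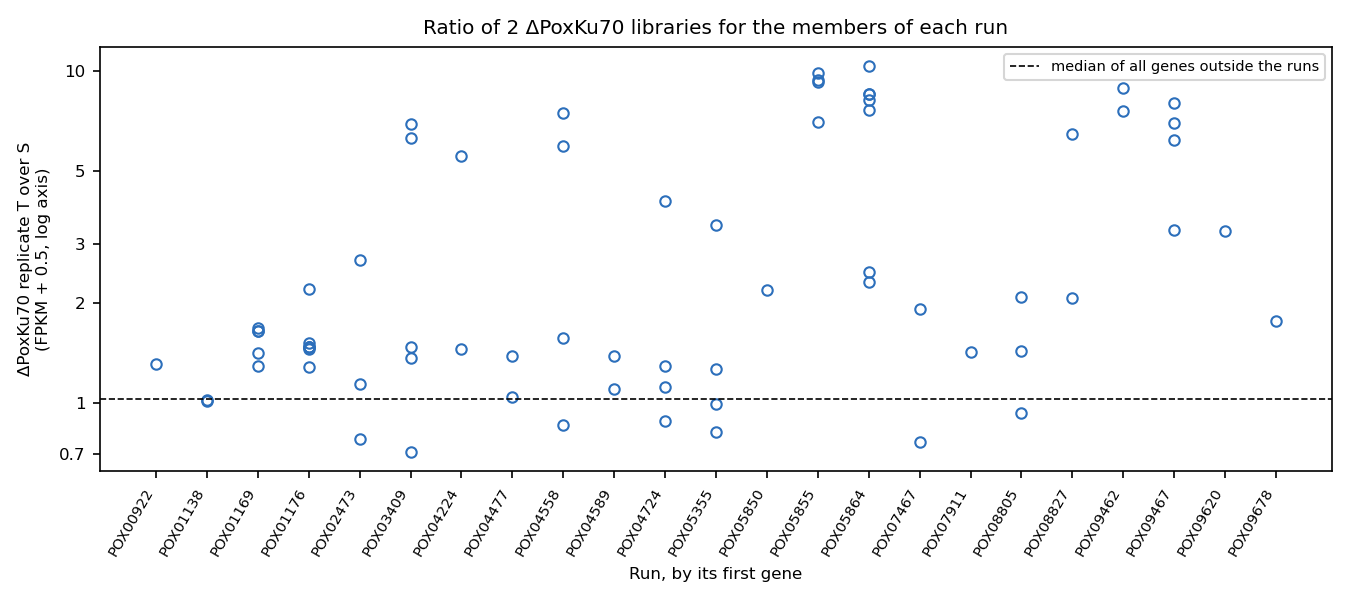
Ratio of replicate T to replicate S of Δ*PoxKu70*, with 0.5 FPKM added to both (log axis), for each member, with the runs along the axis by their first gene and a dashed line at the median of all genes outside the runs. Members from *POX05850* to *POX05870* reach 10.3 and those from *POX09462* to *POX09475* reach 8.90, while members from *POX01169* to *POX01183* stay between 1.28 and 2.20.

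In the edgeR quasi-likelihood fit of the expected counts over 8749 genes, 947 genes (10.8%) were called higher in Δ*PoxMKK1* at an adjusted p below 0.05 and a log2 fold change of at least 1. Of the 69 members, 61 were called. The rule used the same contrast, and nothing is read from this count. The fitted log2 fold change of the members had a median of 2.03 (0.96 to 7.35), beside 0.01 over all tested genes. Standard errors of the members ran from 0.093 to 0.708. They were derived as the absolute log2 fold change over the square root of the F statistic of the quasi-likelihood test. The 8 members not called were *POX04479*, *POX05856*, *POX05857*, *POX05858*, *POX05864*, *POX05865*, *POX05870* and *POX09465*. Of these, *POX04479* and *POX05858* had a log2 fold change below 1 (0.96 and 0.97). *POX05858* and the other 6 missed the limit of the adjusted p, which *POX04479* met. Of the 8, 7 lay in the 2 stretches at *POX05850* and *POX09462*. Without replicate S of Δ*PoxKu70*, 62 members were called, of which 58 were also called with it, and the median log2 fold change of the members was 1.86. *POX05856*, *POX05864*, *POX05865* and *POX09465* then gained the call and *POX05358*, *POX07467* and *POX07468* lost it, while the log2 fold change of *POX05858* dropped to 0.50.

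Over the whole gene table of the study, most enzyme families of the members held genes called in both directions. Since the study chose these 1114 genes in the same libraries, with 587 called higher, 465 called lower and 62 neither by edgeR, the counts are no independent evidence of direction. Of the 5 genes with a PKS ketoacyl synthase entry, 3 were called higher and 2 lower, and 1 is a member. Of the 3 with an NRPS condensation entry, 2 were called higher and 1 lower, and 2 are members. Backbone genes were thus called in both directions. All 4 genes with a phytanoyl-CoA dioxygenase entry are members, and 3 were called higher. Of the 14 methyltransferases that use S-adenosylmethionine, 6 were called higher, 4 lower and 4 neither, with 6 members. Of the 15 short-chain dehydrogenases, 10 were called higher and 4 lower, with 3 members. Both of the last 2 families thus held members as well as genes called lower. Of the 6 NmrA-like genes, 2 were called higher, 1 lower and 3 neither, and of the 6 FAD-binding monooxygenases, 3, 2 and 1, with 3 members in each family. Of the 8 genes with a carrier entry, 5 were called higher and 3 lower, with 3 members. Of the 2 genes with the aromatic prenyltransferase entry, 1 was called higher and 1 lower, and all 4 genes of the isoprenoid synthase fold were called higher, with 1 member in each family. Of the 8 NTF2-like genes, 5 were called higher and 3 lower, with 4 members, and both genes with the scytalone dehydratase entry are members and were called higher. Of the 15 transferases that use pyridoxal phosphate, 7 were called higher and 8 lower, with 2 members.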

How the data were processed

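Mycelium of both strains, 3 libraries each, was sequenced as mRNA on a BGISEQ-500. The authors deposited 1 table per library with the expected count and the FPKM of each gene. Their processing notes name BWA 0.7.10-r789, Bowtie2 2.1.0, RSEM 1.2.12 and DESeq2, with no roles given. Per the study, the reads were aligned to the genome of *P. oxalicum* HP7-1, and its assembly version is not given in the sources used here. Expected counts share reads between similar genes, which gives fractional counts. Here, r and the runs were computed from the deposited FPKM (Python 3.11.15), with a pseudocount of 0.5. The expected counts deposited by the authors were rounded and went into the quasi-likelihood test of edgeR 4.0.16 under R 4.3.3, with strain as the only term, TMM scaling, the filterByExpr filter and Benjamini-Hochberg adjustment over all tested genes. With 13687087 to 14042791 counts per library, counting error weighs most on genes with few counts. Alternatives used DESeq2 1.42.0 and limma 3.58.1, other limits of the rule, a replicate block and each library left out. The members, lists and tests were chosen with earlier results of these data known. Named with every library were, in each run, the member with the highest mean FPKM in Δ*PoxMKK1*, those with the largest and the smallest r, and each member with a polyketide synthase, nonribosomal peptide synthetase, prenyltransferase or isoprenoid synthase entry. Other members are given with r or strain means, and genes beside runs and run genes left out mainly as counts. The gene table of the study gave annotations only. P-values of the fit weigh the difference between the strains against the spread between these libraries. The libraries are called biological repeats by the study, without a label that names separate cultures.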

Additional observations from a re-analysis of the deposited data

How the results depend on the processing

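The limits of the rule set the size of the set. With runs of at least 3 genes there were 207 run genes, 53 runs and 129 members. With runs of at least 5 genes there were 63, 10 and 37, and with r of at least 1.5 there were 63, 13 and 40. Leaving out each library in turn gave 112 to 159 run genes in 22 to 29 runs, with 63 to 95 members, and in the fit 53 to 65 of the 69 members called, 855 to 1008 genes called higher and a median member log2 fold change of 1.86 to 2.19. No member changed direction under any scaling or tool run. The rule required separate groups at every member, which left little room for a change of direction, and nothing is read from this. Whether the letters F, S and T pair samples across the strains was not settled. The correlations of same-letter deviations from the strain means were 0.305, 0.029 and 0.127 over 8842 genes, and that of F was the largest of all pairs. Replicate T of Δ*PoxMKK1* correlated slightly better with replicate S of Δ*PoxKu70* (0.142) than with its replicate T. The main fit treated the samples as unpaired. With the replicate block, 62 members and 959 genes were called and the median member log2 fold change was 2.11. The largest standard error of a member was 0.708.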

Other observations

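The same rule turned to genes lowered in Δ*PoxMKK1* (r of at most -1, highest Δ*PoxMKK1* library below the lowest Δ*PoxKu70* library) found 697 genes, of which 65 lay in 14 runs.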
